A study of Saccharomyces cerevisiae with 16 samples.

Results

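Transcript levels of 6 oxidoreductase genes of budding yeast (Saccharomyces cerevisiae) were followed through 16 RNA-seq libraries: the old yellow enzyme genes OYE2 and OYE3, the nitroreductase-like genes FRM2 and HBN1, and the reductase genes GRE2 and ZTA1. These 6 genes, of 6692 in the count table, were chosen by name after an earlier look at the same libraries, in which OYE3 was already seen to be far higher in cells with YFH1 off and normal H3. All 6 were among the 5876 genes with enough reads to be tested. The comparison that showed OYE3 is therefore given for these genes as levels and differences with no p-value, and so are the 2 comparisons that contain its YFH1-off libraries. Each adjusted p from edgeR below is the quasi-likelihood p after Benjamini-Hochberg (BH) adjustment over the 5876 genes, with a threshold of 0.05. P-values are given for YFH1 off against on in H113N cells, which shares no library with that comparison, and for H113N against WT with YFH1 on, which shares its 4 WT libraries.

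The 4 groups held 4 libraries each, numbered 2 to 5 in the titles: wild type (H3 WT), cells whose histone H3 carries H113N (H3 H113N), and the YFH1-off version of each, in which YFH1 sits behind the GAL1 promoter (p(GAL1)-YFH1). H113N replaces a histidine of histone H3 with asparagine, and the series title ties this residue to a cupric reductase activity of the histone. YFH1 encodes frataxin, a mitochondrial protein used in building iron-sulfur clusters, and comparing the groups asks whether responses to low YFH1 need that histidine. The growth protocol, worded for YFH1-off cells and attached to every sample, took cells grown on YPG into SC medium at 30 °C and an OD600 of 1, with dilution every 12 h over 36 h and 8 h more, 44 h in all. The YFH1-off strains differ from the others in both the promoter construct and the low YFH1 level, and the effects of the shutoff and of the strain construction cannot be told apart. Nothing in the labels says whether replicates were separate cultures, so p-values measure only the spread between these libraries.

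Old yellow enzymes are flavoproteins that carry FMN and use NADPH to reduce the carbon-carbon double bond of unsaturated aldehydes and ketones, reactive compounds that arise when lipids are oxidised. OYE2 and OYE3 are paralogs, and their products are very similar proteins. FRM2 and HBN1 encode relatives of bacterial nitroreductases. GRE2 encodes an NADPH-dependent reductase of methylglyoxal and other aldehydes, known as a gene induced by osmotic stress, and ZTA1 encodes an NADPH-dependent quinone reductase of the zeta-crystallin type. Several such genes are known targets of Yap1, the regulator of the yeast response to oxidants and electrophiles.

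YFH1 itself followed the labels, though its fall was smaller in H113N cells. Its level was 63.5 ± 3.31 CPM (SD, n = 4) in WT, 7.16 ± 1.29 in WT with YFH1 off, 51.8 ± 5.06 in H113N and 10.6 ± 1.74 in H113N with YFH1 off, where CPM is the usual depth-scaled read count, with library sizes corrected by TMM factors. The log2 fold change of YFH1 in the shutoff was -3.14 (SE 0.121) in WT and -2.30 (SE 0.111) in H113N. With YFH1 off, H113N cells held more YFH1 than WT cells, by 0.55 (SE 0.140), with no overlap. The members' shutoff differences in WT and in H113N thus go with unequal falls of YFH1, and any part this plays was not tested. Library totals ran from 6694390 to 10663540 counts, so 3 counts stand at 0.279 to 0.487 CPM. By a chi-square per degree of freedom over genes, WT replicate 2 stood apart from the other WT libraries (54.7 to 76.8, against 4.24 to 8.61 among those), and H113N replicate 3 from the other H113N libraries (17.1 to 32.9, against 6.17 to 15.4). Pairs within the YFH1-off groups gave 2.96 to 9.87, and no pair of libraries looked like a copy. The members' differences that use WT replicate 2 or H113N replicate 3 are also given below without each of them, and those of a named list gene where a call printed here changed. A CPM is a share of the mRNA of a whole culture, so fewer cells with a transcript and less transcript per cell cannot be told apart.

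OYE2 and OYE3 lie on different chromosomes, and their coding sequences are alike but separable by reads. On the R64 (sacCer3) assembly OYE2 (YHR179W) is the single coding exon chrVIII:462502-463704 on the plus strand, and OYE3 (YPL171C) the single coding exon chrXVI:226169-227371 on the minus strand. Both have a coding length of 1203 bases, which gives 400 codons before the stop. The aligned coding sequences were identical at 884 of 1203 bases (73.5%) and their translations at 326 of 400 residues (81.5%). The longest run of identical bases was 14, and the pair shared 0 words of 50 bases, so few reads could match both genes. No annotated gene overlaps either.

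The promoters of OYE2 and OYE3 are shown because the paralogs differed in how far their levels moved, and that of HBN1 because its pattern over the 4 groups was the nearest to that of OYE3 among the other members. Each window runs from 250 bases before the start codon to 50 bases after, read from the RefSeq R64 genome 5′ to 3′ on the strand of the gene. Capitals mark TTACTAA, a 7-letter form of the Yap1 response element, or its complement TTAGTAA.
OYE2 (chrVIII:462252-462551, plus strand): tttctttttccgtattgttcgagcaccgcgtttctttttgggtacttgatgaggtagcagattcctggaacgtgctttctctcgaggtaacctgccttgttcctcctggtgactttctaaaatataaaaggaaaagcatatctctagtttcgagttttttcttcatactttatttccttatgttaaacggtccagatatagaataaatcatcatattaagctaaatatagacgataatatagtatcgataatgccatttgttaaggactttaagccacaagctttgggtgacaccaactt
OYE3 (chrXVI:227322-227621, minus strand): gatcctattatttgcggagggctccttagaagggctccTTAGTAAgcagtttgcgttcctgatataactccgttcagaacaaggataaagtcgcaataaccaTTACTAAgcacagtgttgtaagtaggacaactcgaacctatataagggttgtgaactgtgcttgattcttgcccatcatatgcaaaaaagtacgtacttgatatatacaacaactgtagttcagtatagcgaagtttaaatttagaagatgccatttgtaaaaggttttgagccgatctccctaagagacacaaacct
HBN1 (chrIII:73937-74236, minus strand): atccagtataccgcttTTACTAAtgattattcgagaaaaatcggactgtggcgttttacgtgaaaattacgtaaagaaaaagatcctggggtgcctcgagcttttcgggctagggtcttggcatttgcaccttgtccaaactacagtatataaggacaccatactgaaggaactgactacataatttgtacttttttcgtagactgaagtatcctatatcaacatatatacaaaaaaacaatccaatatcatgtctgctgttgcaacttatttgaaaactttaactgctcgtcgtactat
The OYE3 window holds this form of the element at 148 bases before the start codon and, on the other strand, at 212 bases. HBN1 holds 1 copy of this form at 234 bases before the start. The windows of OYE2, FRM2, GRE2 and ZTA1 hold no copy of this form, while 451 of 6020 windows of the same length (7.49%) hold at least 1 on either strand. Only TTACTAA and TGACTAA were searched for Yap1, so other forms of its site are neither marked nor counted. Of the other motifs searched on both strands, TGACTAA (217 windows, 3.6%) and TCCGCGGA (13 windows, 0.216%) were in no member's window. ZTA1 holds the Aft1 element TGCACCC (78 windows, 1.3%) at 206 bases before its start and the stress response element AGGGG (1298 windows, 21.6%) at 114 bases on the other strand. Both lie within the 321 bases between ZTA1 and the divergent gene FMP23, so they cannot be assigned to either gene. These matches describe the letters in the windows and say nothing of binding.

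OYE3 was the low-level paralog in all 16 libraries, and its level moved further than that of OYE2. Its level in WT was 2.19, 2.60, 1.93 and 2.15 CPM in replicates 2 to 5, from 16 to 21 reads each. WT cells with YFH1 off held 18.0, 23.5, 15.3 and 19.8 CPM. No library of either group came near the other, and the mean was 2.22 ± 0.280 against 19.2 ± 3.45 CPM (SD, n = 4), a log2 fold change of 3.10 (SE 0.151), or 8.56-fold. In H113N cells OYE3 stood at 8.82, 8.39, 8.98 and 8.88 CPM, the narrowest group (8.76 ± 0.260). With YFH1 off as well, it stood at 11.3, 14.4, 12.1 and 13.2 CPM (12.8 ± 1.34). The order was thus WT, H113N, H113N with YFH1 off and WT with YFH1 off, and no 2 groups overlapped.

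OYE3 rose with YFH1 off in H113N cells too, by a log2 fold change of 0.54 (SE 0.124, edgeR adjusted p = 0.00487), with all 4 libraries above the 4 with YFH1 on. In H113N against WT with YFH1 on, it rose by 1.98 (SE 0.164, edgeR adjusted p = 8.27e-08), again with no overlap, in a comparison that uses the 4 WT libraries in which OYE3 was known to be low. The 95% interval of the fold was 1.21 to 1.74 for the former and 3.10 to 5.01 for the latter. Without H113N replicate 3 the log2 fold changes were 0.52 (edgeR adjusted p = 0.0152) and 1.998 (edgeR adjusted p = 3.93e-07). Without WT replicate 2 the latter was 1.97 (edgeR adjusted p = 2e-07), and the descriptive WT shutoff difference was 3.09. The shutoff difference in H113N was lower than that in WT by 2.56 on the log2 scale (SE 0.201), given as a description because it contains the WT comparison. With YFH1 off, H113N cells held less OYE3 than WT cells, at a log2 difference of -0.58 (SE 0.115), also a description.

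OYE2 was an abundant transcript that moved over a much smaller range. Its level was 594, 669, 664 and 712 CPM in WT and 983, 968, 1010 and 989 CPM in WT with YFH1 off. The 4 libraries of H113N held 803, 796, 783 and 887 CPM, and those of H113N with YFH1 off 942, 1009, 999 and 1021 CPM. WT was lowest (660 ± 48.8), H113N next (817 ± 47.1), and the YFH1-off groups highest, where WT (988 ± 17.6) and H113N (993 ± 35.2) overlapped and did not differ beyond their spread. OYE2 rose with YFH1 off in H113N by 0.28 (SE 0.0557, edgeR adjusted p = 0.00179) and in H113N against WT with YFH1 on by 0.31 (SE 0.0558, edgeR adjusted p = 0.000277). Its difference for YFH1 off against on in WT, a description, was 0.58 (SE 0.0559), or 1.50-fold, against the 8.56-fold of OYE3. Without H113N replicate 3 the tested differences of OYE2 were 0.27 (edgeR adjusted p = 0.00615) and 0.32 (edgeR adjusted p = 0.000537). Leaving out WT replicate 2 gave 0.26 (edgeR adjusted p = 0.000401) for H113N against WT with YFH1 on and 0.54 for the WT shutoff.

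Set beside each other on a per-length scale, the paralogs lay at opposite ends of the transcriptome. OYE2 had 548 RPKM in WT (CPM per kilobase of coding sequence) and ranked 302 of 5637 genes with a known length, while OYE3 had 1.84 RPKM and ranked 5445. At its highest, in WT with YFH1 off, OYE3 ranked 4697, and OYE2 there ranked 218. OYE3 reads came to 0.338% ± 0.0484 of OYE2 reads in WT (SD, n = 4), or 301 ± 42.9 OYE2 reads for each OYE3 read. With YFH1 off in WT the share was 1.95% ± 0.382, with 52.9 ± 10.3 OYE2 reads for each OYE3 read. H113N libraries held 1.07% ± 0.0619 and those of H113N with YFH1 off 1.28% ± 0.104. OYE3 stayed the minor transcript in every library, at no more than 2.43% of OYE2.

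The count ratio is read within a library and needs no scaling between libraries. In H113N it was 1.19-fold higher with YFH1 off (0.25 on the log2 scale, two-sided exact permutation p = 0.0286 with n = 4 and 4, and 0.0286 after BH adjustment over the 2 tests of the ratio). With YFH1 on it was 3.14-fold higher in H113N than in WT (1.65 on the log2 scale, two-sided exact permutation p = 0.0286, n = 4 and 4, BH-adjusted p = 0.0286). In both, all 4 libraries of the one group lay above all 4 of the other, and 0.0286 is the smallest p that 4 against 4 allows. The latter test uses the 4 WT libraries in which OYE3 was already known to be low. The ratio was 5.60-fold higher with YFH1 off in WT, which is the difference that drew attention to OYE3 and is given as a description.

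**Figure D1:**
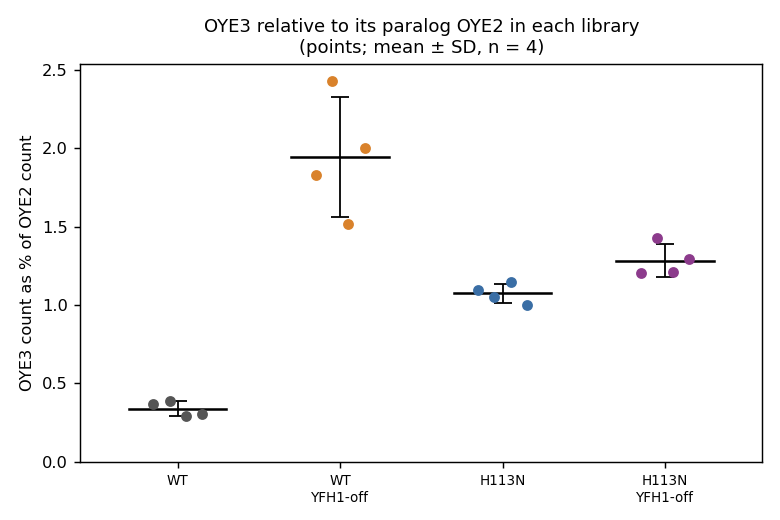
OYE3 count as a percentage of the OYE2 count in each library (points), by group, with the mean as a horizontal line and the SD as error bars (n = 4). WT libraries lie lowest, at 0.291% to 0.389%, H113N libraries at 1.00% to 1.15%, H113N YFH1-off libraries at 1.20% to 1.43% and WT YFH1-off libraries highest, at 1.52% to 2.43%.

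FRM2 and HBN1 are neighbours on chromosome III, and their levels did not follow the same order over the groups. HBN1 (YCL026C-B, chrIII:73405-73986) and FRM2 (YCL026C-A, chrIII:74704-75285) lie on the minus strand with 717 bases between them. Each has a coding length of 582 bases and 193 codons, and the pair was identical at 61.5% of bases and 58.5% of residues, with 11 bases as the longest identical run. FRM2 is known in yeast for a link to fatty acid signalling, and the cellular role of HBN1 is less well known.

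FRM2 was the member whose level with H113N and YFH1 off together lay above all other groups without overlap. It held 1.50, 1.98, 1.45 and 2.49 CPM in WT (12 to 22 reads), 10.9, 11.2, 9.73 and 12.4 CPM in WT with YFH1 off, and 9.73, 11.4, 12.3 and 10.9 CPM in H113N. The combined group held 24.3, 31.0, 31.9 and 30.3 CPM. The middle pair overlapped fully, with a mean of 11.1 ± 1.12 and 11.1 ± 1.05 CPM, while WT (1.85 ± 0.488) lay below both and the combined group (29.4 ± 3.41) above both without overlap. FRM2 rose with YFH1 off in H113N by a log2 fold change of 1.41 (SE 0.115, edgeR adjusted p = 4.32e-07), the 27th largest absolute change of 5876 tested genes. In H113N against WT with YFH1 on it rose by 2.56 (SE 0.169, edgeR adjusted p = 6.97e-09), and its descriptive difference for the shutoff in WT was 2.56 (SE 0.171). Without H113N replicate 3 the tested differences of FRM2 were 1.42 (edgeR adjusted p = 3.67e-06) and 2.55 (edgeR adjusted p = 4.08e-08). Without WT replicate 2, H113N against WT with YFH1 on gave 2.47 (edgeR adjusted p = 8.49e-09), and the WT shutoff difference was also 2.47. In CPM, the shutoff added 9.21 in WT and 18.3 in H113N, whereas on the log2 scale the H113N difference was lower by 1.16 (SE 0.214), so the order of the shutoff differences depends on the scale. With YFH1 off, FRM2 was the member that stood higher in H113N than in WT without overlap, at a log2 difference of 1.41 (SE 0.117), a description.

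HBN1 followed the order of OYE3. Its level was 21.0, 12.8, 10.6 and 14.6 CPM in WT and 91.2, 94.2, 106 and 116 CPM in WT with YFH1 off. H113N libraries held 30.7, 21.2, 34.8 and 39.7 CPM and those with YFH1 off as well 54.1, 57.6, 63.0 and 63.6 CPM. No groups overlapped, although the highest WT library and the lowest H113N library, the 2 libraries that stood apart from their groups, nearly met. HBN1 rose with YFH1 off in H113N by 0.91 (SE 0.167, edgeR adjusted p = 0.000997) and in H113N against WT with YFH1 on by 1.10 (SE 0.191, edgeR adjusted p = 0.000195). Without H113N replicate 3 these were 0.76 (edgeR adjusted p = 0.00239) and 1.24 (edgeR adjusted p = 2.72e-05), and without WT replicate 2 the latter was 1.32 (edgeR adjusted p = 5.68e-06). The descriptive differences were 2.79 (SE 0.182) for the shutoff in WT, 3.01 without WT replicate 2, and -0.78 (SE 0.157) for H113N against WT with YFH1 off.

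**Figure D2:**
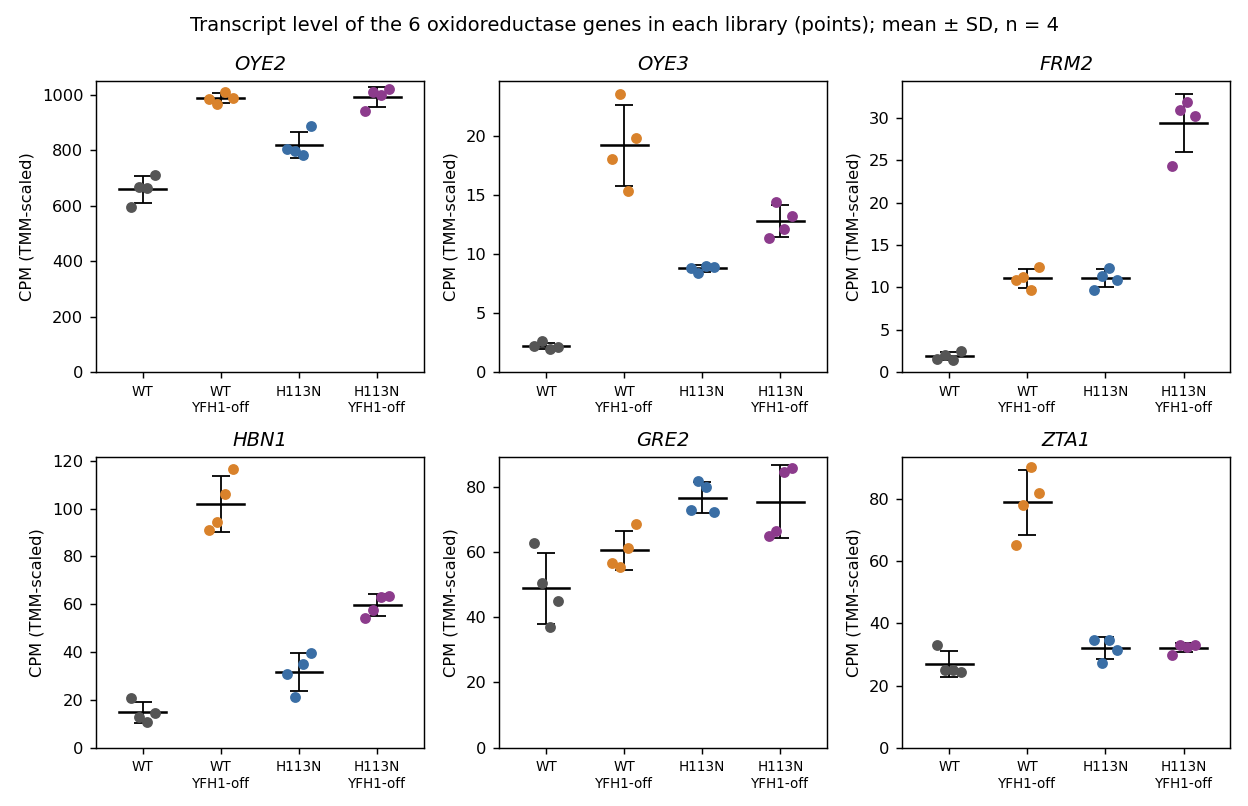
Level of each of the 6 genes in every library (points, TMM-scaled CPM on linear axes that start at 0 and differ between panels), with the group mean as a horizontal line and the SD as error bars (n = 4). OYE3, HBN1 and ZTA1 were highest in WT with YFH1 off, at 19.2, 102 and 78.9 CPM on average, and FRM2 in H113N with YFH1 off, at 29.4 CPM.

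ZTA1 was high in a single group. It held 33.2, 24.9, 25.1 and 24.3 CPM in WT, 34.6, 27.4, 34.6 and 31.5 CPM in H113N and 29.9, 33.0, 32.5 and 32.9 CPM in H113N with YFH1 off, and these groups overlapped. WT with YFH1 off held 65.2, 78.1, 90.2 and 81.9 CPM, above every other library. The descriptive shutoff difference in WT was 1.55 (SE 0.110), or 2.94-fold (1.67 on the log2 scale without WT replicate 2). In H113N the shutoff difference was 0.0018 (SE 0.112, edgeR adjusted p = 0.994), with a 95% interval of 0.850 to 1.18 for the fold, and -0.064 without H113N replicate 3 (edgeR adjusted p = 0.773). H113N against WT with YFH1 on gave 0.25 (SE 0.115, edgeR adjusted p = 0.0819), which did not pass the threshold of 0.05. Without WT replicate 2, the highest WT library, it was 0.37 (edgeR adjusted p = 0.00669), and without H113N replicate 3 it was 0.32 (edgeR adjusted p = 0.0379).

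GRE2 was higher in H113N cells than in WT cells with YFH1 on, and its shutoff difference in H113N did not pass the threshold. Its level was 62.8, 50.5, 36.9 and 45.0 CPM in WT and 56.6, 55.4, 61.3 and 68.5 CPM in WT with YFH1 off, which overlapped (log2 difference 0.31, SE 0.135, a description). H113N libraries held 72.8, 81.7, 80.0 and 72.2 CPM and those with YFH1 off 65.0, 66.5, 84.6 and 85.8 CPM. GRE2 rose in H113N against WT with YFH1 on by 0.65 (SE 0.133, edgeR adjusted p = 0.000819), with no overlap. Leaving out WT replicate 2, the highest of its group, gave 0.80 (edgeR adjusted p = 1.37e-05) for that comparison, and the WT shutoff difference, a description, was then 0.46. Without H113N replicate 3 the former was 0.62 (edgeR adjusted p = 0.00297). YFH1 off against on in H113N gave -0.02 (SE 0.129, edgeR adjusted p = 0.927), with a 95% interval of 0.814 to 1.19 for the fold, and 0.0075 without H113N replicate 3 (edgeR adjusted p = 0.983). GRE2 (YOL151W) is the single coding exon chrXV:43694-44722 on the plus strand, and ZTA1 (YBR046C) the single coding exon chrII:330507-331511 on the minus strand.

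Read against all genes, the members' counts mean less than their size, because a large part of the transcriptome passed the threshold in each comparison. In YFH1 off against on in H113N, 4 of the 6 members rose (OYE2, OYE3, FRM2 and HBN1) and none fell, where 20.6% of tested genes passed, 11.8% higher and 8.73% lower. H113N against WT with YFH1 on had 5 of 6 higher, all but ZTA1, where 46.2% passed, 23% higher and 23.2% lower. Members are not counted in the other comparisons, which are descriptions for them. Over all tested genes, 49.5% passed for YFH1 off against on in WT, 24.5% higher and 25% lower, 52.4% for H113N against WT with YFH1 off, and 30.8% for the difference between the shutoff effects. The median log2 difference of the members was 0.41 in the H113N shutoff and 0.88 in H113N against WT with YFH1 on, beside 0.0231 and 0.0019 over all tested genes, with 2.06 and 0.0087 in the WT shutoff.

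Scaling decided the split over all genes but not the direction of the members' called differences. Scaled by library size alone, higher genes went from 57.6% to 37.2% of those past the threshold in the H113N shutoff, from 49.7% to 66.1% in H113N against WT with YFH1 on and from 49.5% to 30.9% in the WT shutoff. Their share went from 51.9% to 73.9% in H113N against WT with YFH1 off. For the difference between the shutoff effects it went from 55.2% to 65.9%. The median of all genes then lay at -0.107 in the WT shutoff and at 0.133 in H113N against WT with YFH1 off. No called difference of a member changed direction under that scaling.

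**Figure D3:**
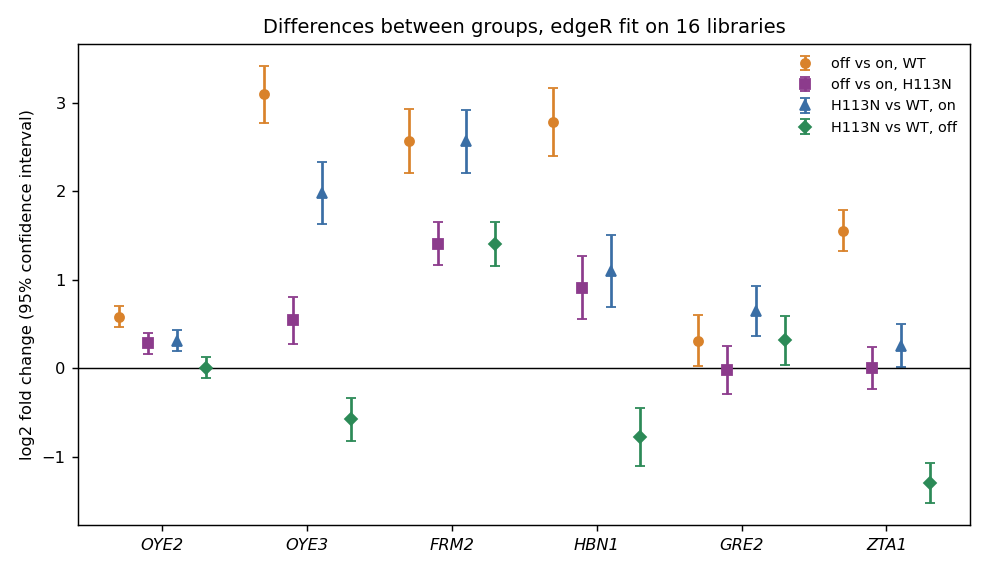
Log2 fold change of each of the 6 genes in 4 comparisons (marker shape and colour), from the edgeR fit on 16 libraries, with 95% confidence intervals and a line at 0. OYE3, HBN1 and ZTA1 lie above 0 for YFH1 off against on in WT and below 0 for H113N against WT with YFH1 off, while FRM2 lies above 0 in all 4.

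The members' patterns over the 4 groups were compared by the root mean square difference of group means of log2 CPM after centring each gene, over 5183 genes with a mean log2 CPM of at least 3 and the members. Among the 15 pairs of members the nearest was OYE2 with GRE2 (0.220), followed by OYE3 with HBN1 (0.294). The distance is not scaled by how far a gene moves, so genes that move little lie near each other. By group mean, OYE2 was highest in the YFH1-off groups and GRE2 in the H113N groups, whereas OYE3 and HBN1 shared an order. The paralogs OYE2 and OYE3 were 0.886 apart and FRM2 and HBN1 0.902 apart. The 5 genes nearest to OYE3 were HSP30 (0.162), which encodes a stress-induced membrane protein, TMA10 (0.219), YJL213W (0.268), the acidic amino acid permease gene DIP5 (0.270) and the vacuolar ABC transporter gene VMR1 (0.278). HSP30 averaged 4.31 CPM in WT, 28.2 in WT with YFH1 off, 15.8 in H113N and 24.3 in H113N with YFH1 off. HBN1 had YTP1 nearest (0.0683), then YJL213W (0.104) and TMT1 (0.148), so YJL213W was on the lists of both HBN1 and OYE3.

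The genes nearest to FRM2 in pattern were further off, the closest being BNA2 (0.437), which encodes the first enzyme of NAD synthesis from tryptophan, the hexose transporter gene HXT5 (0.549) and YNL284C-B (0.550). ZTA1 was nearest to ERG25 (0.111), a sterol C-4 methyl oxidase gene, ROX1 (0.136), which encodes the heme-dependent repressor of hypoxic genes, and the ergosterol synthesis gene ERG28 (0.147). OYE2 was nearest to KTR2 (0.0199), ASK10 (0.0219) and RDR1 (0.0227), and GRE2 to YNR065C (0.0240), YDL129W (0.0374) and YHP1 (0.0545). These distances rest on 4 group means and describe likeness of pattern only.

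Genes beside the members on the chromosome did not all move with them. COX10, 427 bases from OYE3, had a log2 difference of -0.14 (SE 0.0724, edgeR adjusted p = 0.21) in the H113N shutoff, and DAP1, 942 bases away on the other strand, fell by 0.41 (SE 0.134, edgeR adjusted p = 0.0408). STB5, 971 bases from OYE2, had 0.08 (SE 0.0781, edgeR adjusted p = 0.542). FUS1, a mating gene 63 bases from HBN1 on the opposite strand, moved the other way from HBN1. It fell from 58.1 ± 5.93 to 40.7 ± 1.75 CPM in the H113N shutoff (log2 fold change -0.51, SE 0.0855, edgeR adjusted p = 0.000413) and from 56.1 ± 6.15 to 4.18 ± 0.578 CPM in the WT shutoff. AGP1, 732 bases from FRM2, had -0.50 (SE 0.259, edgeR adjusted p = 0.197) in the H113N shutoff.

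FMP23, 321 bases from ZTA1 and divergent from it, rose in both shutoffs. It averaged 3.76 ± 0.553 CPM in WT and 45.4 ± 5.06 with YFH1 off, and 6.86 ± 1.72 CPM in H113N and 15.2 ± 1.78 with YFH1 off (1.15, SE 0.153, edgeR adjusted p = 5.79e-05). ZTA1, which shares the intergenic stretch, did not pass the threshold in the H113N shutoff. GIP1, 414 bases from ZTA1 on its other side, rose by 1.27 (SE 0.166, edgeR adjusted p = 1.24e-05) in H113N against WT with YFH1 on. DCP1, 215 bases from GRE2, and FRE7, 1083 bases away, did not pass the threshold in the H113N shutoff (edgeR adjusted p = 0.0569 and 0.947). Whether reads were counted by strand is not given in the sources used here, and no member overlaps an annotated gene. The members are annotated by coding sequence alone, so that check does not cover transcript ends, as between HBN1 and FUS1.

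Related genes were read from 6 lists of 71 genes, of which 70 were tested, and the lists were chosen with earlier results of these libraries known. Of 19 other aldehyde, quinone and enone reductases, 2 rose and 2 fell in the H113N shutoff, close to the shares over all genes. In the fit of the H113N groups alone 8 passed. Over all genes that fit had 720 higher and 761 lower, against 696 and 513 in the main fit. The risers in the main fit were YGL039W, an aldehyde reductase gene of the GRE2 family, from 67.2 ± 5.24 to 106 ± 2.43 CPM (log2 fold change 0.65, SE 0.0591, edgeR adjusted p = 1.35e-06), and YDR541C (0.33). ADH6, an NADPH-dependent alcohol dehydrogenase gene, fell by 0.38 on the log2 scale (SE 0.0572, edgeR adjusted p = 0.000179), and BDH2 by 0.64. In the WT shutoff 4 rose and 6 fell, near the 24.5% higher and 25% lower of all tested genes. YGL039W was the furthest from 0 there, from 48.3 ± 2.99 to 416 ± 19.4 CPM (3.11, SE 0.0623, edgeR adjusted p = 6.65e-16). YPR1, a 2-methylbutyraldehyde reductase gene, fell there by 0.84 (SE 0.0728, edgeR adjusted p = 5.61e-08). H113N against WT with YFH1 on had 6 higher and 4 lower, where 23% of all tested genes were higher and 23.2% lower. The list medians were 0.11, 0.034 and 0.11 in these 3 comparisons.

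Of the aryl-alcohol dehydrogenase family (AAD genes), 6 of 7 were tested, and AAD15 was below the filter on low counts. In H113N against WT with YFH1 on 5 were higher (AAD4, AAD6, AAD10, AAD14 and AAD16) and none was lower, with a median of 1.00. Over all tested genes 23% were higher there and 23.2% lower. AAD4 rose from 8.92 ± 1.32 to 33.2 ± 5.10 CPM (1.89, SE 0.142, edgeR adjusted p = 2.78e-08) and AAD6 from 14.0 ± 1.35 to 25.8 ± 2.49 CPM (0.88, SE 0.103, edgeR adjusted p = 4.00e-06). In the WT shutoff 4 rose (AAD3, AAD4, AAD6 and AAD16; median 0.30), where 24.5% of all tested genes were higher. Only 2 passed when WT replicate 4 or WT YFH1-off replicate 4 was left out. AAD3 alone rose in the H113N shutoff (0.38, SE 0.0727, edgeR adjusted p = 0.00146; list median 0.14). These genes are close copies of each other, so how the counting shared reads among them makes each value uncertain.

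Of 14 Yap1 and drug resistance targets, 4 rose (YCF1, SOD1, TRR1 and PDR5) and none fell in the H113N shutoff, where 11.8% of all tested genes were higher and 8.73% lower. YCF1, the vacuolar transporter of glutathione conjugates, rose from 339 ± 8.80 to 415 ± 3.31 CPM (0.29, SE 0.0371, edgeR adjusted p = 3.68e-05), and SOD1, cytosolic superoxide dismutase, by 0.31 (SE 0.0797, edgeR adjusted p = 0.0101). The count was 2 with library size scaling, without H113N replicate 2 or without H113N YFH1-off replicate 5. The WT shutoff had 6 higher and 2 lower, where 24.5% of all tested genes were higher and 25% lower. GTT2, a glutathione transferase gene, was at 12.2 ± 2.21 and 41.7 ± 5.27 CPM (1.77, SE 0.122, edgeR adjusted p = 2.92e-09), and the peroxiredoxin gene TSA1 fell by 0.54 (SE 0.0785, edgeR adjusted p = 2.44e-05). In H113N against WT with YFH1 on 8 were lower and 2, GTT2 and TSA1, were higher, where 23.2% of all tested genes were lower and 23% higher. Of the 6 members, 5 were higher there. TSA1 did not pass without WT replicate 4 (edgeR adjusted p = 0.0517). YCF1, among the 8 lower, did not pass with library size scaling (edgeR adjusted p = 0.417) or in the fit of those groups alone (edgeR adjusted p = 0.0851). Nor did it pass without WT replicate 3 or replicate 5 (edgeR adjusted p = 0.0573 and 0.0661). The list medians were 0.16, 0.27 and -0.23 in these 3 comparisons.

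Of 13 regulators, 1 rose and 2 fell in the H113N shutoff, a share near the 20.6% of all tested genes that passed. CAD1, which encodes a relative of Yap1, rose from 42.6 ± 4.06 to 61.9 ± 2.77 CPM (0.54, SE 0.0700, edgeR adjusted p = 4.85e-05), while YAP1 fell by 0.18 and MSN4, a general stress activator gene, by 0.32 (SE 0.0890, edgeR adjusted p = 0.0181). MSN4 did not pass without H113N replicate 4 (edgeR adjusted p = 0.0627), and without H113N YFH1-off replicate 3 or replicate 5 only 1 regulator, CAD1, passed. In the WT shutoff 5 rose and 5 fell, where 24.5% of all tested genes were higher and 25% lower. CAD1 rose there by 1.76 (SE 0.0701, edgeR adjusted p = 2.81e-12) and YRM1, a drug resistance regulator gene, fell by 0.84 (SE 0.0905, edgeR adjusted p = 7.79e-07). H113N against WT with YFH1 on had 4 higher and 3 lower, where 23% of all tested genes were higher and 23.2% lower. Only 2 regulators passed in the fit of those groups alone, where 1048 genes over all were higher and 1025 lower. Without WT replicate 3 or without H113N replicate 4, 4 regulators passed. The list medians were -0.036, -0.11 and -0.0014.

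The osmotic and general stress targets, the company in which GRE2 is usually placed, had no riser in either shutoff. Of 10 genes, 7 fell in the WT shutoff (median -0.81), where 25% of all tested genes were lower. In the H113N shutoff 3 fell (GPP2, CTT1 and STL1; median -0.25), where 8.73% of all were lower, and the other 7 did not pass the threshold. GPP2, glycerol phosphatase, fell by 0.61 in the latter (SE 0.0833, edgeR adjusted p = 7.32e-05) and CTT1, cytosolic catalase, by 0.78 (SE 0.144, edgeR adjusted p = 0.00106). In H113N against WT with YFH1 on, 5 were higher and GLO1 was lower (median 0.36), where 23% of all tested genes were higher and 23.2% lower. There GPP2 rose from 122 ± 18.0 to 326 ± 16.3 CPM (1.41, SE 0.0854, edgeR adjusted p = 3.13e-09), and GRE2, as above, rose too. HSP12, a small heat shock protein gene, was at 629 ± 353 CPM in WT and 72.4 ± 12.8 in WT with YFH1 off (-3.12, SE 0.444, edgeR adjusted p = 1.89e-05), and without WT replicate 2 the difference was -3.46.

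Genes of riboflavin and FMN synthesis, which supply the cofactor of the old yellow enzymes, were read last. Their counts were 1 of 8 in the H113N shutoff, 3 of 8 in the WT shutoff and 3 of 8 in H113N against WT with YFH1 on, where 20.6%, 49.5% and 46.2% of all tested genes passed. RIB7 was the gene past the threshold in the H113N shutoff (-0.19, SE 0.0633, edgeR adjusted p = 0.0379; median -0.068), and none passed without H113N replicate 2, 3 or 5 or without H113N YFH1-off replicate 2, 4 or 5, where RIB7 had adjusted p from 0.0793 to 0.104 by edgeR. RIB3 had 0.14 there (SE 0.0483, edgeR adjusted p = 0.0569). With library size scaling 3 passed, where 472 genes over all were higher and 797 lower. In the fit of those groups alone 2 did, where 720 genes over all were higher and 761 lower. In the WT shutoff RIB1 and RIB5 rose, by 0.25 (0.14, not past the threshold, with library size scaling) and 0.18, and RIB4 fell by 0.66 (SE 0.0605, edgeR adjusted p = 1.16e-07; median 0.038). RIB5 and RIB7 were higher and FMN1 lower in H113N against WT with YFH1 on (median -0.0068).

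In H113N against WT with YFH1 off, where 52.4% of all tested genes passed, 6 reductases were higher and 3 lower, 5 AAD genes higher and none lower, and 2 Yap1 and drug resistance targets higher and 9 lower. Of the regulators 6 were higher and 5 lower, of the osmotic and general stress targets 8 higher and none lower (median 1.41), and of the riboflavin and FMN genes 2 higher and 3 lower.

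**Figure D4:**
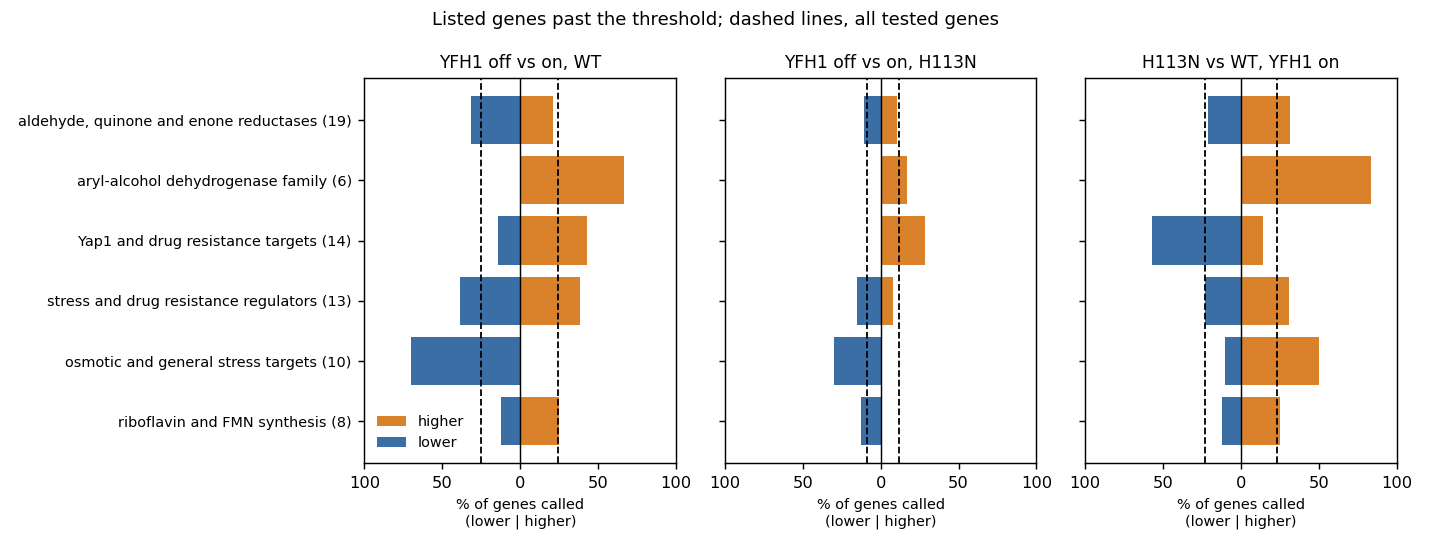
Percentage of the tested genes of each list past the threshold (BH-adjusted p under 0.05, edgeR), lower to the left in blue and higher to the right in orange, in 3 comparisons, with dashed lines at the shares over all tested genes. AAD genes reach 83.3% higher for H113N against WT with YFH1 on, and osmotic and general stress targets 70% lower for YFH1 off against on in WT.

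In the authors' deposited table of adjusted p-values, the members past 0.05 for YFH1 off against on in H113N were also OYE2 (9.09e-07), OYE3 (0.0030), FRM2 (7.89e-22) and HBN1 (1.85e-06), with GRE2 at 0.919 and ZTA1 at 0.997.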

How the data were processed

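Polyadenylated RNA from 16 yeast libraries was analysed. The authors deposited whole-number counts per gene. They also deposited normalized counts, a scaled signal equal to the count over 1 factor per library (to a relative spread of 1.1e-09), used for gene names, and columns of adjusted p-values. Per the submitters' processing notes, which give no order, role or version, FastQC, cutadapt, HISAT2, featureCounts and DESeq2 were used with build sacCer3.

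Counts were fitted with edgeR 4.0.16 (limma 3.58.1, R 4.3.3) quasi-likelihood, on all 16 libraries at once with a mean for each group, TMM scaling and filterByExpr (minimum count 10, 4 libraries). The Benjamini-Hochberg adjustment ran over 5876 genes with a threshold of 0.05. SE is the absolute log2 fold change over the square root of F. Library totals were 6694390 to 10663540, and 3 counts are taken as the floor, which covers counting error only. The OYE3 to OYE2 ratio had 0.5 added to each count. 0 per-sample columns were left unassigned. The script was tested on simulated data.

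Members, lists and tests were chosen with earlier results of these data known. Named beside the members and YFH1 are the 5 genes nearest to OYE3 in pattern and 3 nearest to each other member, chromosome neighbours, and from each list the 2 smallest adjusted p in the H113N shutoff and the 2 largest absolute differences in the WT shutoff. Genes named outside this rule, among them those listed for counts of 5 or fewer, were chosen after their values were seen. HOR2 of the lists is GPP2 in the files. Sequences and coordinates are from RefSeq R64, the same assembly as sacCer3. Alternatives were other scalings (library size, DESeq2 size factors), no filter on low counts, DESeq2 1.42.0, a replicate block, the compared groups alone and each library left out.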

Additional observations from a re-analysis of the deposited data

Results flagged for a closer look

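Of 24 sets of 4 libraries (6 members in 4 groups), 2 held a library set apart from the other 3 by a gap that takes up most of the range, and chance gives about 1 such set in 20. Both concern ZTA1, in WT replicate 2 at 33.15 CPM, where the next library was at 25.1 CPM, and in H113N YFH1-off replicate 2 at 29.94 CPM, where the next was at 32.5 CPM. WT replicate 2 is also the WT library that stood apart over all genes.

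The shutoff difference was lower in H113N than in WT for the members flagged here. On the log2 scale, H113N minus WT was -0.302 for OYE2, -2.56 for OYE3, -1.16 for FRM2, -1.88 for HBN1 and -1.55 for ZTA1. GRE2, not flagged, had -0.336 (SE 0.187), with a 95% interval of -0.731 to 0.0596. Flagging used the edgeR threshold, which 30.8% of all tested genes passed in this comparison. All these differences contain the WT comparison in which OYE3 was already known to differ. They are thus given as a description, and neither they nor the flags lend independent support. YFH1 itself also fell less in H113N than in WT.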

How the results depend on the processing

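Of 462 recomputed values for the 6 members, 451 kept their side of the threshold, and 0 differences past it in the main fit changed direction. The other 11 went from not passing to passing and concern GRE2, ZTA1 and OYE2 in comparisons where they had not passed. These counts include the comparisons given as descriptions, where the side of the threshold lends no support. Differences near 0 did change sign in the H113N shutoff, from -0.089 to 0.041 for GRE2 and from -0.064 to 0.041 for ZTA1, with neither passing. ZTA1 in H113N against WT with YFH1 on passed with library size scaling (0.33, adjusted p = 0.0305, edgeR), without WT replicate 2 or without H113N replicate 3. GRE2 without WT replicate 2 stood at 0.46 in the WT shutoff and at -0.49 in the difference between the shutoff effects, both descriptions. In H113N against WT with YFH1 off, also a description, GRE2 ran from 0.25 to 0.44 over the alternatives. OYE2 in that comparison ran from -0.0069 to 0.13. OYE3 ran from 0.47 to 0.59 in the H113N shutoff, with adjusted p from 0.00304 to 0.0215. Of 1540 recomputed values for named list genes, 1487 kept their side of the threshold, and no difference past it in the main fit changed direction.

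The numbers of called genes stayed within 1.5 times in every alternative run, at 940 to 1074 of a main 1209 in the H113N shutoff when 1 library was left out. Replicate numbers were not taken to pair the libraries, since 24 same-number correlations of deviations ran from -0.203 to 0.228 and only 8 were over 0.1; between H113N and H113N with YFH1 off they were 0.165, 0.0135, 0.207 and 0.149 for replicates 2 to 5. With the number as a replicate block, 1218 genes passed in the H113N shutoff, 2944 in the WT shutoff and 2716 in H113N against WT with YFH1 on, and no member's call changed. For the OYE3 to OYE2 ratio, the paired exact sign-flip test over the numbers left log2 differences of 0.25 (H113N shutoff) and 1.65 (H113N against WT with YFH1 on) at p = 0.125, the smallest that 4 pairs allow, and 5 in place of 0.5 added to each count gave log2 differences of 0.22 and 1.43. OYE3 and FRM2 rest on 12 to 22 reads a library in WT, which limits their fold changes against that group.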

Other observations

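On the CPM scale the members divide by how the level with H113N and YFH1 off together compares with the sum of the separate differences from WT. FRM2 stood 27.5 CPM above WT in the combined group, against 9.21 CPM for YFH1 off alone and 9.20 CPM for H113N alone. OYE3 stood 10.5 CPM above WT in the combined group, against 17.0 and 6.55 CPM, and HBN1 44.8 CPM, against 87.2 and 16.9 CPM. ZTA1 stood 5.23 CPM above, against 52.0 and 5.14 CPM. OYE2 stood 333 CPM above, against 328 and 158 CPM, and GRE2 26.6 CPM, against 11.6 and 27.9 CPM. These 4 group means share the WT libraries, and no test was made of the sums.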
